A study of Chlamydomonas reinhardtii with 9 samples.

Results

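The mutant strain mcd1-1 of Chlamydomonas reinhardtii, a unicellular green alga, was set against wild type on 3 of the 9 spotted arrays in the series. They were chosen by their titles, which set mcd1-1 against wild type. Each carried total RNA of the nonphotosynthetic mutant mcd1-1 in channel 1 and total RNA of the wild-type strain P17 in channel 2. Another 3 arrays, used here for comparison, paired the nonphotosynthetic mutant mcd1-2 with the same wild type. The remaining 3 set the photosynthetic suppressor mcd2-1 against mcd1-2. Growth conditions, age of the cultures and the nature of the mutations are not given in the labels. The labels number the arrays 1 to 3 and do not tell whether each had its own culture. The p-values therefore cover only array-to-array spread, which may be technical.

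As background, MCD1 is a nuclear gene of Chlamydomonas whose product is needed for the chloroplast petD messenger RNA to accumulate. petD encodes subunit IV of the cytochrome b6f complex, which passes electrons from photosystem II by way of plastoquinone to plastocyanin and photosystem I. Algae without this complex cannot grow photosynthetically but can be kept alive on acetate. Many nuclear genes of this alga act in this way, each on the stability or translation of 1 or a few chloroplast messages. The keywords of the labels describe the strains as petD mutants.

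The array held 213 spots in 71 probes of 3 consecutive spots each. The annotation names 33 spots, which make up 11 probes, and each names 1 nuclear locus. The other 60 probes, with 180 spots, have no gene name here and are called by their spot numbers. No probe can be tied to petD or to any other chloroplast gene. Values are log ratios of mcd1-1 over wild type after subtraction of each array's median, so 0 is the level of the median probe. The logarithm's base, which no source used here gives, was taken as 2. Another base would change every fold change and no sign or p-value. The direction is not given either and was taken as channel 1 over channel 2, the order of the titles. It is likely, not certain, and the other direction would turn every higher into lower.

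The arrays numbered 1, 2 and 3 had values on 212, 201 and 206 spots. On array 2 the probes of spots 40 to 42, 61 to 63, 175 to 177 and 193 to 195 had no value, so they rest on 2 arrays, while 67 probes had a value on all 3. Within a probe the spots lay close together, with a median SD of 0.11 on array 1, 0.033 on array 2 and 0.046 on array 3. Between arrays the spread was larger, with a median SD of 0.35 over the 71 probes. Arrays 2 and 3 were alike and array 1 stood apart. Without spots 97 to 99, Pearson's r across probes was 0.755 between arrays 2 and 3, 0.179 between arrays 1 and 2, and 0.274 between arrays 1 and 3. These are descriptions over 66 to 70 probes, which are not independent, on arrays of the same 2 strains. For 24 probes array 1 lay on one side of 0 while arrays 2 and 3 both lay on the other. Array 2 was the odd one for 8 probes and array 3 for 3.

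**Figure D1:**
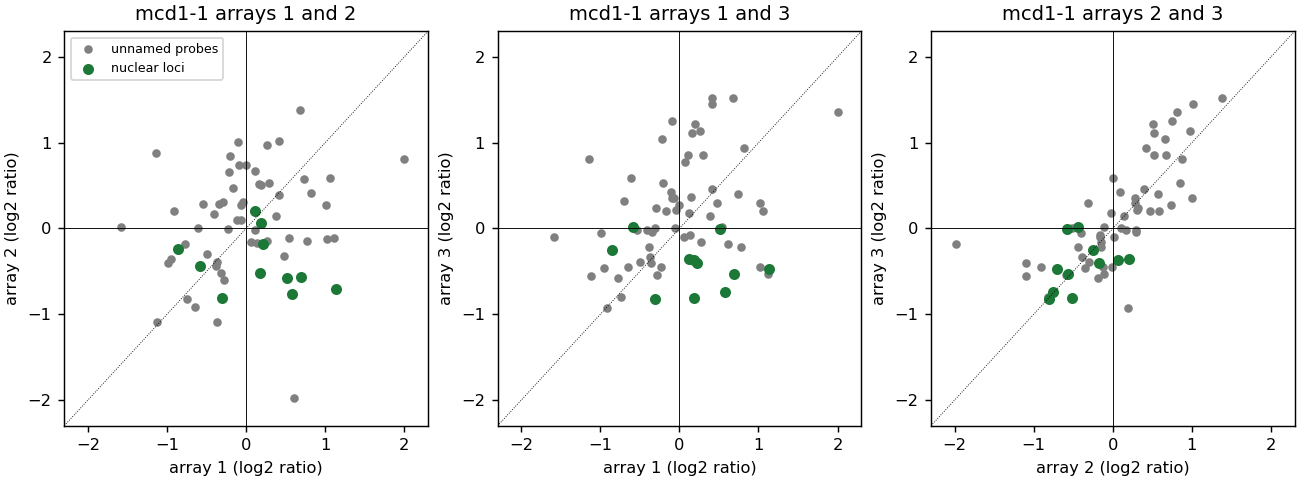
Log ratios (taken as log2) of mcd1-1 over wild type for 2 arrays at a time, with 1 point per probe and without spots 97 to 99. The horizontal and vertical axes each show 1 array, green points are the 11 nuclear loci, and the dotted line marks equal values. Points follow the line for arrays 2 and 3 (r = 0.755) and scatter widely in both panels with array 1 (r = 0.179 and 0.274).

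In mcd1-1, 1 probe was far lower than in wild type, and no other mean lay nearly as far from 0. Of 71 probes, 3 passed the threshold (4.23% of those tested), 1 lower (1.41%) and 2 higher (2.82%). The mean lay within 0.5 of 0 for 46 probes, between 0.5 and 1 in size for 22, and beyond 1 for only the 3 that passed. At an unadjusted p under 0.05 there were 11 probes (15.5%), 7 higher and 4 lower. The sign was the same on every array with a value for 32 of 71 probes (45.1%). For 34 probes the whole 95% interval lay between a 2-fold lower and a 2-fold higher level, and for 69 it lay between -2 and 2 in log2 units. Beyond those 34 the interval reached a 2-fold change or more, so for them a small difference was not shown. Without centring the threshold was passed by 2 probes higher and 2 lower, and after subtracting the median of neighbouring probes by 1 higher and 2 lower. With array weights, which gave array 1 a weight of 0.58 and arrays 2 and 3 each 1.76, 14 probes passed.

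**Figure D2:**
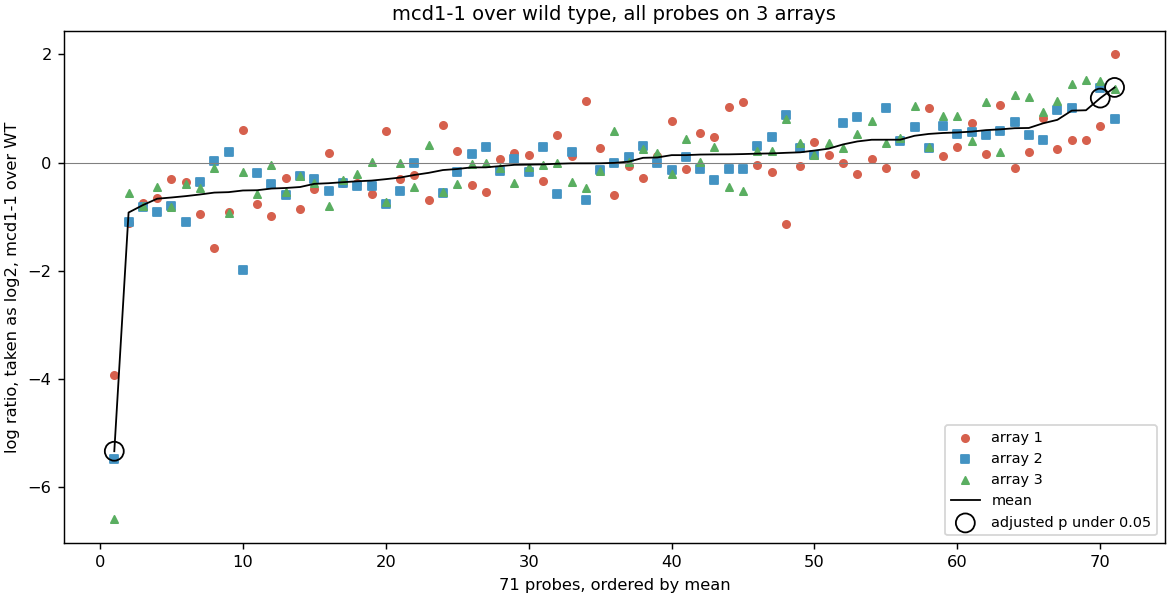
Log ratio (taken as log2) of mcd1-1 over wild type for all 71 probes, ordered along the horizontal axis by their mean. Symbols are the 3 arrays, the line is the mean, and rings mark the 3 probes with a limma adjusted p under 0.05. The lowest probe, spots 97 to 99, has a mean of -5.34, far below the next at -0.92, and the highest 2 have means of 1.39 and 1.19.

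The probe that fell was spots 97 to 99, which has no gene name in the annotation. Its log ratio was -3.93, -5.49 and -6.60 on arrays 1, 2 and 3. On each array this probe lay far below every other. The mean was -5.34 ± 1.35 (SD, n = 3), which is 40.5-fold lower in mcd1-1 than in wild type (95% interval 22.2 to 73.9, limma adjusted p = 2.00e-07). The single spots told the same: as deposited, before centring, they read -4.40, -3.74 and -4.04 on array 1, -5.42, -5.58 and -5.57 on array 2, and -6.91, -6.64 and -6.95 on array 3. The SD between arrays was larger than the SD among spots of an array, which was 0.33, 0.090 and 0.17 on arrays 1, 2 and 3. This was the most variable of the 71 probes between arrays, so the direction is better measured than the size. The 95% interval does not rest on this spread alone. Its spread also draws on the mcd1-2 arrays (SD 0.56) and on the model's prior SD of 0.508, both smaller than 1.35. Spot intensities were not available, so closeness of these spots to background could not be checked. The mean was -6.05 without array 1 and -4.71 without array 3. The probe passed the threshold under all 19 alternatives, with a limma adjusted p of at most 0.00725.

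Spots 205 to 207 rose in mcd1-1. The log ratio was 2.00, 0.81 and 1.36 on arrays 1, 2 and 3, above 0 on each. The mean was 1.39 ± 0.60 (SD, n = 3), or 2.62-fold higher than in wild type (95% interval 1.71 to 4.02, limma adjusted p = 0.00973). This probe was highest on array 1, whose 3 spots read 2.36, 1.63 and 1.61 as deposited. Without array 1 the mean was 1.09 and the call was lost (limma adjusted p = 0.0743). It was also lost without array 3 (1.40, 0.166), with the median of neighbouring probes subtracted (1.06, 0.149), with all 9 arrays in the fit (0.0643, but 0.0149 once suppressor replicate 1 had its sign turned) and with only the 3 mcd1-1 arrays (0.0676), within a range from 0.000171 to 0.166 over 19 alternatives.

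Spots 178 to 180 also rose. The log ratio was 0.68, 1.38 and 1.52 on arrays 1, 2 and 3, so here array 1 was the lowest. The mean was 1.19 ± 0.45 (SD, n = 3), or 2.29-fold higher than in wild type (95% interval 1.53 to 3.41, limma adjusted p = 0.0133). The call was lost under 5 of 19 alternatives, among them without array 2 (1.10, limma adjusted p = 0.200), without array 3 (1.03, 0.166), with all 9 arrays in the fit (0.120, but 0.0392 once suppressor replicate 1 had its sign turned) and with only the 3 mcd1-1 arrays (0.0676), within a range from 0.000558 to 0.200 over all 19. Both rises thus depend on which arrays enter the fit, while their sign was the same under every alternative run.

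Below the threshold, 2 unnamed probes came close. Spots 145 to 147 stood at -1.12, -1.09 and -0.56 on arrays 1, 2 and 3, with a mean of -0.92 ± 0.32 (SD, n = 3, limma adjusted p = 0.0535). For spots 91 to 93 the arrays read 0.42, 1.02 and 1.45, with a mean of 0.96 ± 0.52 (SD, n = 3, limma adjusted p = 0.0535). Each lay on one side of 0 on every array, and each passed under some alternatives, 8 of 19 for spots 145 to 147 and 7 of 19 for spots 91 to 93.

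The 10 highest means ran from 0.60 to 1.39. After the 2 that passed, they were led by spots 40 to 42 at 0.97 ± 0.78, measured at 0.42 and 1.52 on arrays 1 and 3 only (SD, n = 2), and by spots 91 to 93. Spots 31 to 33 followed at 0.79 ± 0.47 and spots 58 to 60 at 0.73 ± 0.28 (SD, n = 3). Spots 106 to 108, 139 to 141, 190 to 192 and 55 to 57 had means from 0.60 to 0.64. Because the 10 were picked by their means on these same arrays, a positive sign on each array is partly built in. The sign was positive on every array with a value for 9 of these 10, against 17 of all 71 probes. The exception was spots 139 to 141, at -0.09, 0.74 and 1.26 on arrays 1, 2 and 3. None of the 10 is a named nuclear locus, since all 11 nuclear means lay below 0.

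The 10 lowest means ran from -5.34 to -0.52. Spots 166 to 168 were the most even of them, at -0.74, -0.82 and -0.80 on arrays 1, 2 and 3, with a mean of -0.79 ± 0.040 (SD, n = 3). Their limma adjusted p was 0.0916. Spots 124 to 126, at -0.67, spots 25 to 27, at -0.62, and spots 184 to 186, at -0.59, were below 0 on 3 of 3 arrays. The rest of the 10 include means carried by 1 array. Spots 70 to 72 stood at -1.59 on array 1 but at 0.02 and -0.10 on arrays 2 and 3, and spots 127 to 129 stood at -1.98 on array 2 but at 0.61 and -0.18 on arrays 1 and 3. The array 2 value averages deposited spots at -0.46, -2.08 and -3.50. Spots 1 to 3 stood at -0.91, 0.20 and -0.93. One of the 10, spots 19 to 21, is a named nuclear locus.

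At the other end, some probes hardly varied between arrays. The SD was under 0.1 for 5 of 71 probes, among them spots 85 to 87, at -0.37, -0.39 and -0.33 on arrays 1, 2 and 3, and spots 43 to 45, at 0.42, 0.39 and 0.46. It was over 1 for 4 probes. Apart from spots 97 to 99 and 127 to 129, these were spots 109 to 111, at -1.14, 0.88 and 0.81, and spots 4 to 6, at 1.13, -0.70 and -0.48. In both, array 1 lay opposite to arrays 2 and 3. Neighbouring probes tended to have like values: without spots 97 to 99, the mean of a probe correlated with that of the next probe at 0.273 over 68 pairs. The same correlation was 0.090 on array 1, 0.360 on array 2 and 0.390 on array 3. It is a description across probes, and no source used here says whether neighbours share a place on the slide, a gene or a pathway.

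The 11 nuclear loci are the only probes with a gene identity, and none passed the threshold in mcd1-1. Over all probes 3 of 71 passed (4.23%), so none among 11 does not set these loci apart. All 11 locus tags are in RefSeq's gene table for Chlamydomonas_reinhardtii_v5.5. The files name no genome build, so positions are left out. Their means ran from -0.65 to -0.01 with a median of -0.14, against -0.01 over all 71 probes and 0.14 over the 60 unnamed ones. All 11 means lay below 0, where 36 of 71 probes did (50.7%). On single arrays 3, 9 and 10 of 11 lay below 0 on arrays 1, 2 and 3, so array 1 ran the other way. For 6 of the 11, array 1 lay opposite to arrays 2 and 3, as it did for 24 of the 67 probes with a value on all 3. The number below 0 was 11 without array 1, 8 without array 2 and 6 without array 3, and it was 8 relative to the median of neighbouring probes. The part of array differences in this shift was not tested. The functions named next are textbook background rather than part of the annotation. Loci of a shared role mostly sit on adjacent probes, and neighbouring probes tended to have like values. Likeness by role and likeness by position therefore cannot be told apart here.

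Both named subunits of the chloroplast ATP synthase, the enzyme that makes ATP from the proton gradient across the thylakoid membrane, were low on arrays 2 and 3. The locus of the gamma subunit, CHLRE_06g259900v5 (spots 19 to 21), stood at -0.31, -0.81 and -0.82 on arrays 1, 2 and 3. Its mean of -0.65 ± 0.29 was the lowest of the nuclear loci (SD, n = 3, limma adjusted p = 0.188), and its unadjusted p was 0.0265. It passed with array weights (-0.74, limma adjusted p = 0.0235) and with the spots kept apart in the fit (-0.65, 0.0131), within a range up to 0.581 over its alternatives. The locus of the delta subunit, CHLRE_11g467569v5 (spots 22 to 24), stood at 0.58, -0.76 and -0.74, with a mean of -0.31 ± 0.77 (SD, n = 3). The 2 loci, which lie on adjacent probes, were nearly equal on arrays 2 and 3 and apart on array 1.

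The alternative oxidases pass electrons of the mitochondrial chain from ubiquinol straight to oxygen. Both loci stood above 0 on array 1 and below 0 on arrays 2 and 3. CHLRE_09g395950v5 (spots 4 to 6) stood at 1.13, -0.70 and -0.48 on arrays 1, 2 and 3, with a mean of -0.01 ± 1.00 (SD, n = 3). CHLRE_03g169550v5 (spots 7 to 9) stood at 0.69, -0.57 and -0.54, with a mean of -0.14 ± 0.72 (SD, n = 3). The arrays gave no common direction for either.

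Plastocyanin, the copper protein that carries electrons from the cytochrome b6f complex to photosystem I, is encoded by CHLRE_03g182551v5 (spots 100 to 102). It stood at -0.58, -0.43 and 0.02 on arrays 1, 2 and 3, with a mean of -0.33 ± 0.31 (SD, n = 3, limma adjusted p = 0.593). The value of array 2 averages deposited spots at -1.50, 0.08 and 0.02, and that of array 3 rests on 1 spot. With the median of the 3 spots the mean was -0.20. The photosystem I subunit loci CHLRE_05g238332v5 (spots 115 to 117, PsaD) and CHLRE_09g412100v5 (spots 118 to 120, PsaF) serve the electron exit and the docking of plastocyanin. PsaD stood at 0.12, 0.20 and -0.36, and PsaF at 0.18, 0.07 and -0.37. Their means were -0.01 ± 0.30 and -0.04 ± 0.29 (SD, n = 3 each), and both sat above 0 on arrays 1 and 2 and below 0 on array 3, where PsaF rests on 1 spot. The 95% intervals of the pair ran from -0.76 to 0.67, so a change of 2-fold or more in the mean of either lay outside them, with the spread taken from the model.

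PsbO and PsbP shield the manganese cluster of photosystem II, where water is split. CHLRE_12g550850v5 (spots 67 to 69, PsbP) stood at -0.86, -0.24 and -0.26 on arrays 1, 2 and 3, below 0 on each. Its mean was -0.45 ± 0.35 (SD, n = 3, limma adjusted p = 0.295). The value of array 1 averages deposited spots of opposite sign, at 0.41, -1.77 and -1.62, and with the median of the 3 spots the mean was -0.68 (limma adjusted p = 0.240). CHLRE_09g396213v5 (spots 64 to 66, PsbO) stood at 0.22, -0.18 and -0.40, with a mean of -0.12 ± 0.31 (SD, n = 3). PsbP and the ATP synthase gamma subunit were the 2 of 11 nuclear loci with a probe mean below 0 on every array. Over all probes 15 of 71 lay below 0 on every array with a value, so these loci do not stand out by it. The remaining loci, for which no role is given here, were CHLRE_07g326150v5 (spots 94 to 96), at 0.18, -0.52 and -0.81, and CHLRE_16g671400v5 (spots 10 to 12), at 0.52, -0.58 and -0.0048.

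**Figure D3:**
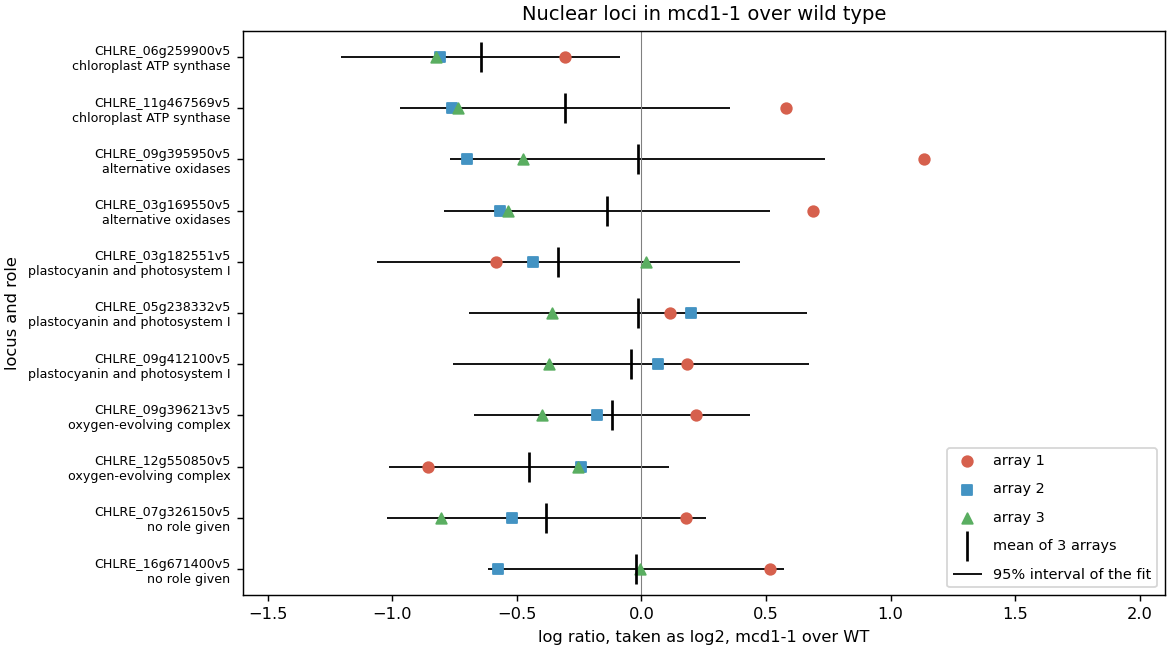
Log ratio (taken as log2, horizontal axis) of mcd1-1 over wild type for the 11 nuclear loci, grouped by role down the page. Symbols are the 3 arrays, the bar is their mean, and the line is the 95% interval of the fit. All 11 means lie below 0, from -0.65 to -0.01, and only the interval of CHLRE_06g259900v5 leaves out 0.

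The mutant mcd1-2, measured against the same wild type, shows where mcd1-1 differs from it. The same wild-type strain was used for both, so a likeness between the mutants may come in part from it. Of 71 probes, 1 passed the threshold for the difference mcd1-1 minus mcd1-2 (1.41%), and 4 had an unadjusted p under 0.05. That probe was spots 13 to 15, without a gene name. Its log ratio was 1.02, 0.28 and 0.30 on the mcd1-1 arrays, against -3.02, -2.71 and -3.75 on the mcd1-2 arrays. Every mcd1-1 array lay above 0 and every mcd1-2 array far below it. The mcd1-1 arrays averaged 0.53 ± 0.42, against -3.16 ± 0.53 for the mcd1-2 arrays (SD, n = 3 per mutant). Their difference of 3.69 (95% interval 2.82 to 4.57) corresponds to a ratio 12.9-fold higher in mcd1-1 (interval 7.04 to 23.7, limma adjusted p = 2.36e-05). Within mcd1-1 alone the mean of 0.53 did not pass (limma adjusted p = 0.294). The difference between the mutants passed the threshold under all 18 alternatives, with values from 3.40 to 3.95.

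Groups did not overlap for 13 of 71 probes (18.3%), and for 5 of 71 (7.04%) the mutants lay on opposite sides of 0 on every array with a value. Besides spots 13 to 15, the 5 were spots 40 to 42, 46 to 48, 172 to 174 and 193 to 195. Spots 46 to 48 stood at -0.99, -0.40 and -0.05 on the mcd1-1 arrays, against 0.62, 2.43 and 0.69 on the mcd1-2 arrays. The difference was -1.73 (95% interval from -2.79 to -0.66, limma adjusted p = 0.130). It did not pass, but did without centring (limma adjusted p = 0.00270), with the spots kept apart (0.00633) and without mcd1-2 array 3 (0.000659), within a range up to 0.659 over its alternatives. Spots 172 to 174 stood at -0.28, -0.60 and -0.54 on the mcd1-1 arrays, and had a difference of -0.68 (limma adjusted p = 0.352).

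For spots 97 to 99, the probe that fell in mcd1-1, the mcd1-2 arrays read -5.11, -4.14 and -5.12. The mcd1-1 arrays averaged -5.34 ± 1.35, against -4.79 ± 0.56 for the mcd1-2 arrays (SD, n = 3 per mutant), and the ranges overlapped. The 95% interval of the difference of -0.55 ran from -1.78 to 0.67, so the mutants were not told apart. The 2 probes that rose in mcd1-1 had smaller means in mcd1-2, and neither difference passed. Spots 178 to 180 averaged 1.19 ± 0.45 in mcd1-1, against 0.43 ± 0.16 in mcd1-2 (SD, n = 3 per mutant), a difference of 0.76 with no overlap between arrays (limma adjusted p = 0.352). Spots 205 to 207 averaged 1.39 ± 0.60 in mcd1-1, against 0.62 ± 0.32 in mcd1-2 (SD, n = 3 per mutant), a difference of 0.78 (limma adjusted p = 0.352). For that probe, mcd1-1 array 2 minus mcd1-2 array 3, which lack the same 4 probes, was -0.15, and the difference among the other arrays was 1.24.

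The reverse pattern, lower in mcd1-1 than in mcd1-2, was seen in the means of adjacent probes, but neither difference passed. Since neighbouring probes tended to have like values, their adjacency is not separate support. Spots 58 to 60 stood at 0.82, 0.41 and 0.94 on the mcd1-1 arrays, against 1.63, 1.95 and 1.45 on the mcd1-2 arrays, with no overlap. The difference was -0.95 (95% interval from -1.74 to -0.16, limma adjusted p = 0.352), and it passed with the spots kept apart (0.0287). Spots 55 to 57 averaged 0.60 ± 0.48 in mcd1-1, against 1.69 ± 0.62 in mcd1-2 (SD, n = 3 per mutant), a difference of -1.09 (limma adjusted p = 0.352) that passed without mcd1-2 array 3 (-1.45, 0.0409). Without that array spots 34 to 36 passed as well, at -2.10 (0.000438), against -1.22 with all arrays. Spots 181 to 183 completed the 5 lowest differences at -0.91. After spots 13 to 15, the 5 highest were spots 40 to 42 at 1.07, 139 to 141 at 0.95, 88 to 90 at 0.81 and 157 to 159 at 0.79. For the nuclear loci no difference passed, no locus was free of overlap between the mutants, and the lowest unadjusted limma p was 0.294. Over all probes 1 of 71 differences passed (1.41%) and 13 of 71 probes were free of overlap (18.3%). With 11 loci, these counts do not set the nuclear loci apart. The median of the 11 nuclear means was -0.26 in mcd1-2, against -0.14 in mcd1-1. In mcd1-2, 7 of the 11 means lay below 0, against all 11 in mcd1-1. On the single mcd1-2 arrays 1, 2 and 3, the loci below 0 were 11, 7 and 5 of 11. Over all probes, where centring sets the share, they were 35 of 71, 35 of 71 and 33 of 66. A nuclear median below 0 was thus seen in both mutants, but it varied between arrays. A difference between the mutants in the nuclear loci as a set was not tested.

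**Figure D4:**
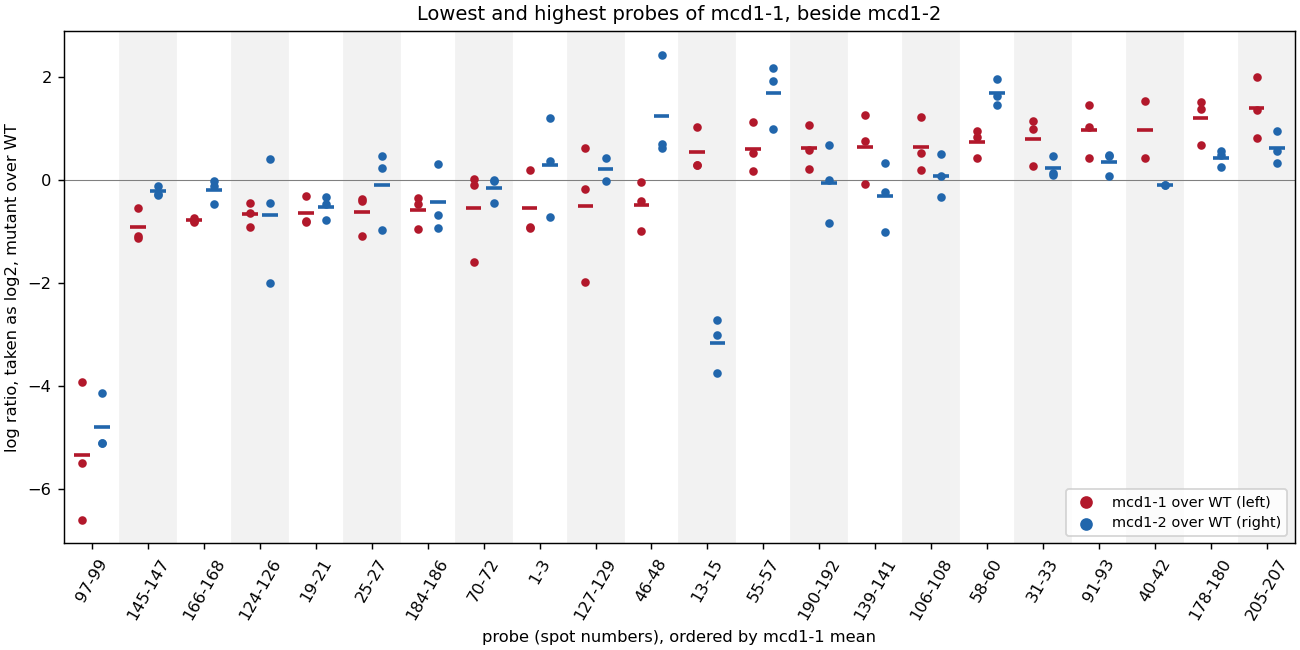
Log ratio (taken as log2) over wild type for the 10 lowest and 10 highest probes of mcd1-1 and for spots 13 to 15 and 46 to 48, ordered by the mcd1-1 mean. Points are single arrays and bars are means, with mcd1-1 in red on the left and mcd1-2 in blue on the right of each probe. Spots 97 to 99 are low in both mutants (-5.34 and -4.79), while spots 13 to 15 are low only on the mcd1-2 arrays (0.53 in mcd1-1 against -3.16 in mcd1-2).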

How the data were processed

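The arrays had 2 channels, and per the labels channel 1 of the arrays described here held mcd1-1 RNA and channel 2 held wild-type RNA. The deposited table gives 1 log ratio per spot, taken here as log2. No source used here gives the scanner, the dyes, the background correction, the normalization or spot intensities, and so no floor of detection was set. Precision is limited by how few arrays there are.

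Spots were averaged in consecutive sets of 3, and each array's median over the 71 probes was subtracted. One mean per mutant was fitted with limma 3.58.1 in R 4.3.3 (lmFit, eBayes) over the 6 arrays set against wild type, with 4 residual and 9.93 prior degrees of freedom and a prior SD of 0.508. The suppressor arrays were left out of that fit. Their direction is not settled (replicates 1 and 2 correlated at -0.314 over the probes) and their spread was larger (median SD between arrays 0.848). They return among the alternatives. Where the sign of suppressor replicate 1 was turned, that was done because of this correlation, so a call regained there is no separate support. Tests were two-sided, p-values were adjusted over all 71 probes by Benjamini and Hochberg's method, and the threshold was 0.05. Intervals are 95% intervals of the fit.

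The rule for naming probes took those past the threshold, the 10 highest and 10 lowest means, the 5 highest and 5 lowest differences between the mutants, and all nuclear loci. A few other probes are named beside counts and were chosen after their values were seen. The probes, lists, alternatives and the choice of arrays were set with earlier results of these data known. The smallest p that an exact sign-flip test of 3 arrays can give is 0.25, so the limma p-values rest on its model.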

Additional observations from a re-analysis of the deposited data

Results flagged for a closer look

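The probe of spots 13 to 15 differed between the mutants by a test of the difference itself, with mcd1-1 minus mcd1-2 at 3.69 (limma adjusted p = 2.36e-05). Between the 2 arrays that lack the same probes it was 4.03, and among the others 3.52. Spots 46 to 48, with a difference of -1.73, and spots 40 to 42, with a difference of 1.07, lay on opposite sides of 0 on every array of the 2 mutants with a value. Neither difference passed the limma test, and spots 40 to 42 have 2 arrays in each mutant. With 5 of 71 probes on opposite sides of 0 in this way (7.04%), such a pattern is not rare in these data.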

How the results depend on the processing

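The count of 3 probes past the threshold in mcd1-1 was 1 with all 9 arrays of the series in the fit, but 3, the same probes, with the sign of suppressor replicate 1 turned there. It was 1 with only the mcd1-1 arrays, 5 with arrays scaled to one spread, 5 over the 66 probes with a value on every array, 5 with a random block for arrays that share missing probes, 6 with the spots kept apart and 14 with array weights. Leaving out 1 array at a time gave 1 to 5. The difference between the mutants, with 1 probe past the threshold, gave 2 without centring, 3 with the spots kept apart, and 1 to 4 with 1 array left out. Nuclear loci below 0 numbered 6 to 11 when 1 array was left out. Spots 97 to 99 in mcd1-1, and spots 13 to 15 in the difference, passed under every alternative run. Relative to the median of neighbouring probes, the means of spots 10 to 12, 115 to 117 and 118 to 120 became positive, at 0.15, 0.016 and 0.055. With 1 array left out, the means of 7 of the named probes took either sign, from -0.29 to 0.26 for spots 10 to 12, from -0.12 to 0.16 for spots 115 to 117, from -0.15 to 0.12 for spots 118 to 120, from -1.08 to 0.22 for spots 127 to 129, from -0.59 to 0.33 for spots 4 to 6, from -0.29 to 0.021 for spots 64 to 66, and from -0.55 to 0.077 for spots 7 to 9. Where no other cause is given, the cause was not tested. The sharing of a number did not pair arrays of the 2 mutants. Their deviations from the group means correlated at -0.25, -0.36 and -0.07 for numbers 1, 2 and 3, and no array correlated best with its own number. The highest values were 0.37 for mcd1-1 array 1 with mcd1-2 array 2, 0.29 for 2 with 3, and 0.32 for 3 with 1. A pairing across numbers is not given in the labels and was not tested. With the replicate block 2 probes passed in mcd1-1, spots 97 to 99 and 205 to 207, and 1 in the difference, while spots 178 to 180 stood at 1.19 (limma adjusted p = 0.0516). Spots 40 to 42 and 127 to 129 have no value under the filter for every array.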
